A study of Homo sapiens with 6 samples.

Results

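The thioredoxins, thioredoxin reductases and peroxiredoxins were described as 10 genes taken by symbol, TXN, TXN2, TXNRD1, TXNRD2 and PRDX1 to PRDX6, out of the 32192 genes of the count table. They were chosen as the redox partners of APEX1, the endonuclease also known as Ref-1, and the peroxidases related to them. The study asked what raised APEX1 does to the transcriptome and splicing of A549, an established human lung adenocarcinoma line. In the APEX1-OE group the cells carried APEX1 in the pIRES-hrGFP-1a vector with a FLAG tag at its 3′ end, and in the Ctrl group they carried a control plasmid. Both groups were transfected transiently, so cells of the same library can differ in how much plasmid they took up. Polyadenylated RNA of 3 libraries per group was sequenced, and the deposited tables hold read counts and FPKM (fragments mapped per kb of transcript, scaled to the fragments mapped in the library).

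Thioredoxin reduces disulfide bonds of its target proteins, among them ribonucleotide reductase and APEX1 itself, and is returned to its reduced form by thioredoxin reductase, a selenium-containing flavoenzyme that draws its electrons from NADPH. Peroxiredoxins break down hydrogen peroxide and organic peroxides at a cysteine that, in most of them, thioredoxin then reduces. TXN and TXNRD1 are the cytosolic forms and TXN2 and TXNRD2 the mitochondrial ones. A549 cells carry a mutated KEAP1, and the transcription factor NRF2, which drives several of these genes through antioxidant response elements, is therefore constantly active in them.

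The 6 libraries held between 28131955 and 41009197 counts. APEX1 itself had 618, 680.3 and 768 FPKM in APEX1-OE 1, 2 and 3 and 129, 126 and 124 FPKM in Ctrl 1, 2 and 3. No library of APEX1-OE fell to the level of any Ctrl library, and APEX1 was the 1 gene of 16971 tested that passed an adjusted p of 0.05 (log2 fold change 2.42, SE 0.17, adjusted p = 0.00809 in edgeR's quasi-likelihood test). APEX1 still passed without APEX1-OE 1 (adjusted p = 0.00149 in edgeR) and without Ctrl 3 (0.0493), but not without APEX1-OE 2, APEX1-OE 3, Ctrl 1 or Ctrl 2 (0.118, 0.0674, 0.210 and 0.207), while its log2 fold change stayed between 2.36 and 2.46. The epithelial keratin KRT8 averaged 3046 FPKM and KRT18 averaged 2464 FPKM, while EPCAM averaged 0.342 FPKM. The 5 epithelial markers summed to 6511, 5004 and 5081 FPKM in APEX1-OE and 6191, 6202 and 4647 FPKM in Ctrl. Markers of blood, endothelial and stromal cells summed to at most 0.25 FPKM in any library, with PTPRC and CD3E at 0 counts in all libraries but 1 each. The alveolar type II markers SFTPC, SFTPB and NKX2-1 had at most 7 counts in any library.

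The libraries did not separate by group. The first principal component of log2 CPM (counts scaled to the library total after TMM normalization) held 72.6% of the variance and put APEX1-OE 1, Ctrl 1 and Ctrl 2 on one side, called the first side here, and APEX1-OE 2, APEX1-OE 3 and Ctrl 3 on the second side. When the tested genes were split into 10 equal bins by GC content of their exons, the lowest bin was higher on the second side by a median of 0.90 (log2 CPM), and the highest bin differed by a median of -0.64. Each side held libraries of both groups, so a fit with the side as a term was made beside the fit of the groups alone. The labels do not say that the libraries came from separate cultures, and the p-values measure only the spread between these libraries. In bulk RNA, fewer cells carrying a transcript and less of it per cell cannot be told apart.

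None of the 10 members passed the test between APEX1-OE and Ctrl. All 10 passed the filter on low counts, and edgeR called 0 of them at an adjusted p under 0.05, against 0.00589% of all genes tested. DESeq2 and limma on log2(FPKM + 1) also called 0 members. At an unadjusted p under 0.05 edgeR gave 0 members, against 0.695% of all genes, and DESeq2 and limma gave 0 as well. In CPM the groups overlapped for all 10 members, whereas they did not overlap for 3.39% of all genes. The median log2 fold change was -0.04 over the members and 0.03 over all genes tested. The estimates lay between -0.57 for PRDX2 and 0.18 for TXNRD1. A missed threshold does not show that the groups were equal: the 95% interval of the fold ran from 0.695 to 1.20 for PRDX1, 0.722 to 1.28 for PRDX6 and 0.720 to 1.34 for TXN. These were the narrowest intervals of the 10 members. It ran from 0.586 to 1.87 for TXNRD2, 0.380 to 1.19 for PRDX2 and 0.650 to 1.98 for TXNRD1.

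Adding the side as a term, 1 member reached an unadjusted p under 0.05 in edgeR, against 11.6% of all genes, and 0 members passed the adjusted threshold, against 0.0236% of all genes. That member was TXNRD2, with a log2 fold change of 0.32 (95% interval 0.06 to 0.59, adjusted p = 0.374, with a range of 0.304 to 1.000 over the alternatives). A share of 1 in 10 is close to the share of all genes. In this fit the log2 fold changes of TXN2, TXNRD1, PRDX3, PRDX5 and PRDX6 took the opposite sign, to 0.16, -0.15, -0.22, 0.13 and 0.03.

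**Figure D1:**
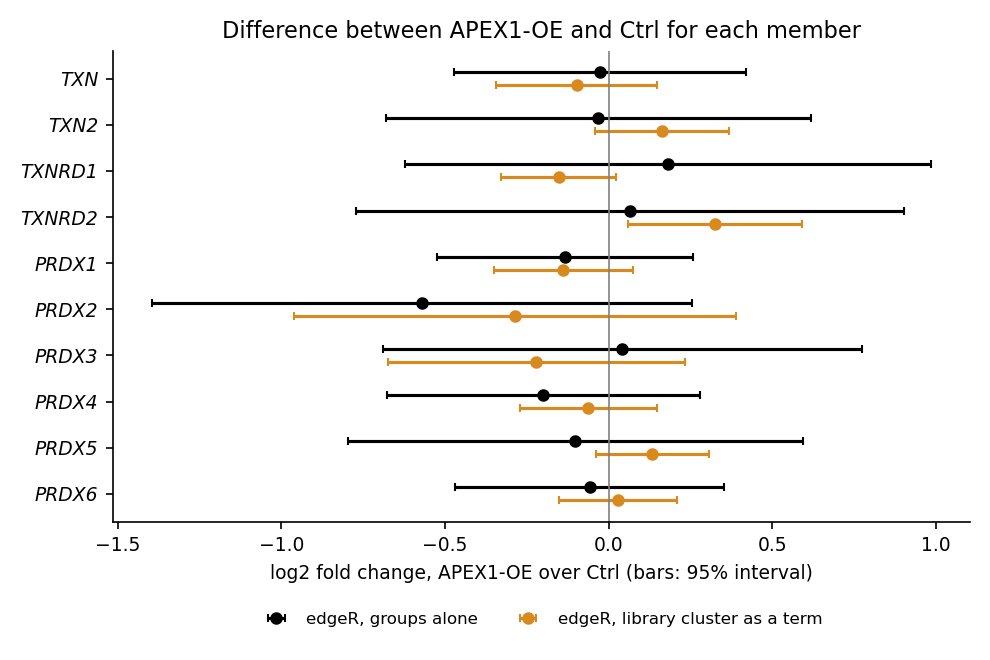
Log2 fold change of APEX1-OE over Ctrl for each of the 10 members, from edgeR with the groups alone (black) and with the library cluster, the side of the first principal component, as a term (orange). Bars are 95% intervals over 6 libraries; with the groups alone every interval holds 0, and with the term only that of TXNRD2 (0.06 to 0.59) does not.

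TXN, the cytosolic thioredoxin (chr9:110243810-110256507, minus strand, GRCh38), had 345, 451 and 615 FPKM in APEX1-OE 1, 2 and 3 and 466, 437 and 502 FPKM in Ctrl 1, 2 and 3. APEX1-OE held both the lowest and the highest library, and all Ctrl libraries lay between them. The log2 fold change was -0.03 (SE 0.19, 95% interval -0.47 to 0.42), and the estimate was 0.07 without APEX1-OE 1, 0.02 without APEX1-OE 2 and -0.20 without APEX1-OE 3. Mean FPKM was 470.4 ± 136 for APEX1-OE and 468 ± 32.5 for Ctrl (SD over 3 libraries each). The genome holds 2 other stretches at 90% identity or more over at least 50% of the TXN transcript, the closer at 92.4%. Reads may therefore have been split between them or dropped, which was not tested.

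TXN2, the thioredoxin of mitochondria (chr22:36467046-36481640, minus strand), had 38.7, 29.0 and 26.3 FPKM in APEX1-OE 1, 2 and 3 and 35.2, 34.6 and 26.3 FPKM in Ctrl 1, 2 and 3. The 3 libraries of the second side were the lowest, and the groups overlapped. Its log2 fold change was -0.03 (SE 0.28, 95% interval -0.68 to 0.62); it was -0.34 without APEX1-OE 1 and -0.19 without Ctrl 3, and above 0 without any of the other 4 libraries, at most 0.13. In every library TXN stood above TXN2, by 8.92-fold at the lowest and 23.4-fold at the highest, on the FPKM scale.

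The promoter of TXN, from 250 bases before to 50 bases after the start of the gene (chr9:110256458-110256757, minus strand, GRCh38.p14), is shown because TXN was among the 3 most abundant members. RefSeq promoters were matched for 7 of the 10 members, and none was matched for TXN2, PRDX1 and PRDX6. Capitals mark TATAAA, the TATA box, searched on both strands; its 2 matches, 1 on each strand, overlap. These letters occur in 11.5% of the 35116 promoters of the same length. Of the other members matched, TXNRD2 held these letters in 1 of its 3 promoters.
TXN promoter: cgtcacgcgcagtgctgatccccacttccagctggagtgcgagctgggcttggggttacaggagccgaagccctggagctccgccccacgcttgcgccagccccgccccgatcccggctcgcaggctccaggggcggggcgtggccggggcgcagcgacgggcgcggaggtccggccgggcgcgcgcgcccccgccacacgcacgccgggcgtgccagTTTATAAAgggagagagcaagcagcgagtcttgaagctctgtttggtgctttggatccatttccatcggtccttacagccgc

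TXNRD1, the cytosolic thioredoxin reductase (chr12:104215779-104350307, plus strand), had 123, 300.1 and 309 FPKM in APEX1-OE 1, 2 and 3 and 159, 158 and 315 FPKM in Ctrl 1, 2 and 3. The 3 libraries of the second side lay near 300 FPKM and the 3 of the first side at or below 159, with both groups found at both levels. The log2 fold change was 0.18 (SE 0.35, 95% interval -0.62 to 0.98), and it was 0.01 without Ctrl 1 and 0.52 without Ctrl 3. Between libraries of 1 side APEX1-OE was the lower: APEX1-OE 1 differed from the mean of Ctrl 1 and Ctrl 2 by -0.25 (log2 CPM), and the mean of APEX1-OE 2 and 3 differed from Ctrl 3 by -0.05. With the side as a term the log2 fold change was -0.15 (95% interval -0.33 to 0.02).

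TXNRD2, the mitochondrial reductase (chr22:19875517-19941820, minus strand), had 12.6, 8.72 and 6.32 FPKM in APEX1-OE 1, 2 and 3 and 10.1, 9.99 and 6.50 FPKM in Ctrl 1, 2 and 3. APEX1-OE 3 and Ctrl 3 were the lowest and APEX1-OE 1 the highest, the reverse of TXNRD1 in the same libraries. Between the groups it differed by 0.07 (log2 fold change, SE 0.36, 95% interval -0.77 to 0.90), and it was -0.36 without APEX1-OE 1, -0.15 without Ctrl 3 and 0.32 without APEX1-OE 3. Within a side the log2 CPM of APEX1-OE exceeded that of Ctrl by 0.44 on the first and 0.18 on the second.

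TXNRD1 has 2 promoters in RefSeq (chr12:104215529-104215828 and chr12:104286782-104287081, plus strand, GRCh38.p14), and both are shown because this gene differed most between the sides among the members and is a known NRF2 target. Capitals mark TGACNNNGC, the core of the antioxidant response element, on either strand. The promoter that starts the gene held 2 matches and the inner promoter 1, and 13.4% of the 35116 promoters of this length held at least 1. No other member with a RefSeq promoter held these letters in its window. TXN2, PRDX1 and PRDX6 had no promoter matched, and sequence outside the windows was not searched.
TXNRD1 promoter, first: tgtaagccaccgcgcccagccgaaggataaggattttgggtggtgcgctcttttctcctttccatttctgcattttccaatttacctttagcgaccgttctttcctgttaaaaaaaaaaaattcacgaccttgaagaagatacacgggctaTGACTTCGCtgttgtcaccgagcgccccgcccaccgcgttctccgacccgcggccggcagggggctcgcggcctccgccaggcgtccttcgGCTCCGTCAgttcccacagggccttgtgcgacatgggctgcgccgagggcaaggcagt
TXNRD1 promoter, inner: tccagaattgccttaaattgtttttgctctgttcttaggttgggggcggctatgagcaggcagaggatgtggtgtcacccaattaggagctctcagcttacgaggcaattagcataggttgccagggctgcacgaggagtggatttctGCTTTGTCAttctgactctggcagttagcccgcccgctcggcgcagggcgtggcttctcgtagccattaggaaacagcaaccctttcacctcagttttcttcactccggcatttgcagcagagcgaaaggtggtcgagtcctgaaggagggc

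PRDX1, a cytosolic peroxiredoxin (chr1:45510914-45542732, minus strand), had 402, 467 and 590.2 FPKM in APEX1-OE 1, 2 and 3 and 541, 495 and 535 FPKM in Ctrl 1, 2 and 3. As for TXN, APEX1-OE held both extremes in FPKM and Ctrl lay between them; in CPM, Ctrl 1 was the highest library (858 against at most 838 in APEX1-OE). The log2 fold change was -0.13 (SE 0.17, 95% interval -0.53 to 0.26), or -0.24 without APEX1-OE 3. The pooled spread within groups was 0.13 (SD of log2 CPM), the smallest of the 10 members, against a median of 0.37 over all genes tested. MMACHC on the opposite strand shares 501 bases with its exons (29.8%) but had 4298 counts over the 6 libraries, where PRDX1 had between 18306 and 31146 in each; whether strand was used in the counting is not stated in the sources used here. Another stretch of the genome matches the whole PRDX1 transcript at 91.4% identity.

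PRDX2, the peroxiredoxin abundant in red blood cells and brain (chr19:12796820-12801800, minus strand), had few counts in these libraries. It had 0.50, 0.49 and 0.58 FPKM in APEX1-OE 1, 2 and 3 and 0.89, 0.93 and 0.47 FPKM in Ctrl 1, 2 and 3. These values stood on 18, 24 and 24 counts in APEX1-OE and 30, 39 and 21 counts in Ctrl. Ctrl 1 and Ctrl 2 were above the other 4 libraries, while Ctrl 3 was the lowest in FPKM, so the groups overlapped. The log2 fold change was -0.57 (SE 0.36, 95% interval -1.40 to 0.25), the largest in size among the members in this fit and the one with the fewest counts behind it. With the side as a term it was -0.29, smaller in size than that of TXNRD2 (0.32). In limma on log2(FPKM + 1) it was -0.20. In edgeR with the groups alone it was -0.37 without Ctrl 2. Without Ctrl 3 it was -0.87, and PRDX2 then had an unadjusted p under 0.05 in edgeR, as 3.47% of all genes did, and did not pass the adjusted threshold.

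Genes around PRDX2 differed in level. HOOK2, whose annotated span runs across the locus without sharing exons, averaged 4.73 FPKM. JUNB, the nearest separate protein-coding gene below it on the chromosome, averaged 81.9 FPKM, and RNASEH2A, the nearest above it, averaged 19.7 FPKM. Farther out, BEST2, RTBDN and MAST1 averaged 0.03, 0.052 and 0.717 FPKM, where PRDX2 averaged 0.643. These neighbours were named after the level of PRDX2 had been seen. PRDX2 ranked 12948 of 31951 genes by mean FPKM, whereas PRDX1 ranked 101, and the FPKM of PRDX1 was 532-fold to 1138-fold that of PRDX2 in the same library. This fold depended on the length used. With CPM per exon kb the means over all libraries were 460 for PRDX1 and 0.387 for PRDX2, against 505 and 0.643 FPKM. The genome holds 2 other stretches at 90% identity or more over at least 50% of the PRDX2 transcript, the closer at 90.9%. Unique mapping may therefore have lowered the count of PRDX2, which was not tested.

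The promoter of PRDX2 (chr19:12801751-12802050, minus strand, GRCh38.p14) is shown because the gene was the least expressed member. Capitals mark each CG dinucleotide, of which the window holds 46; 2.89% of the 35116 promoters hold as many or more. Its GC content is 73.7%, the highest among the promoters matched to members. Methylation was not measured here.
PRDX2 promoter: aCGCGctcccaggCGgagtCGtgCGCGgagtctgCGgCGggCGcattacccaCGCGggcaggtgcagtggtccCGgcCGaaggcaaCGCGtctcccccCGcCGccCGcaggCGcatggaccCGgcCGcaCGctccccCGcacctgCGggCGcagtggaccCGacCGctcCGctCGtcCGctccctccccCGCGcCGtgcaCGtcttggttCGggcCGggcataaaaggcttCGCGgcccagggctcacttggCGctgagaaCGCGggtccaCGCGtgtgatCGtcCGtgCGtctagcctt

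PRDX3, the mitochondrial peroxiredoxin (chr10:119167720-119178812, minus strand), had 34.3, 62.4 and 102 FPKM in APEX1-OE 1, 2 and 3 and 60.7, 53.0 and 72.9 FPKM in Ctrl 1, 2 and 3. Its range over the libraries was the widest of the members, 2.45-fold in CPM, with both extremes in APEX1-OE. Its log2 fold change was 0.04 (SE 0.32, 95% interval -0.69 to 0.77) and turned to -0.35 without APEX1-OE 3 and -0.04 without Ctrl 2, while it was 0.29 without APEX1-OE 1. One other stretch of the genome matches its transcript at 90.1% identity.

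PRDX4, the peroxiredoxin of the endoplasmic reticulum (chrX:23664262-23686397, plus strand), had 121, 117 and 134 FPKM in APEX1-OE 1, 2 and 3 and 147, 156 and 118 FPKM in Ctrl 1, 2 and 3. Ctrl 1 and Ctrl 2 were the highest libraries, and Ctrl 3 fell within the range of APEX1-OE in FPKM and just below it in CPM (185 against 186). The groups differed by a log2 fold change of -0.20 (SE 0.21, 95% interval -0.68 to 0.28), and it was -0.09 without Ctrl 2 and -0.35 without Ctrl 3, when the groups no longer overlapped in FPKM, as for 12.8% of all genes. Mean FPKM was 124 ± 8.72 for APEX1-OE and 140.2 ± 20.2 for Ctrl (SD over 3 libraries each), which differ by -16.2 (exact permutation p = 0.3).

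PRDX5, found in mitochondria, peroxisomes and cytosol (chr11:64318121-64321811, plus strand), had 601, 401 and 408 FPKM in APEX1-OE 1, 2 and 3 and 580.0, 551 and 385 FPKM in Ctrl 1, 2 and 3. The first side held the 3 high libraries and the second side the 3 low ones. Its log2 fold change was -0.10 (SE 0.30, 95% interval -0.80 to 0.59), and it was -0.45 without APEX1-OE 1 and -0.30 without Ctrl 3, but 0.04, 0.04 and 0.02 without APEX1-OE 2, APEX1-OE 3 and Ctrl 1. PRDX6, which uses a single catalytic cysteine and glutathione in place of thioredoxin (chr1:173477330-173488815, plus strand), had 142, 142 and 157 FPKM in APEX1-OE 1, 2 and 3 and 157, 156 and 140.2 FPKM in Ctrl 1, 2 and 3. Its CPM had the narrowest range of the members, 1.24-fold over all 6 libraries, and its log2 fold change was -0.06 (SE 0.18, 95% interval -0.47 to 0.35), or -0.15 without Ctrl 3.

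In FPKM, which is per length and so compares genes, the members fell into steps. PRDX1 (505), PRDX5 (488) and TXN (469) had the highest means over the 6 libraries and were not separated by their spread: PRDX1 was above PRDX5 in 3 libraries, and PRDX5 above TXN in 3. TXNRD1 followed at 227 FPKM, below TXN in all 6 libraries with no overlap of the ranges. TXNRD1 exceeded PRDX6 (149) in 5 libraries, and PRDX6 exceeded PRDX4 (132) in 5, by at most 1.21-fold. PRDX3 (64.2) lay below PRDX4 in all 6 libraries, and above TXN2 (31.7) in 5. TXNRD2 (9.04) and PRDX2 (0.643) each stood apart from the gene before it, TXNRD2 by at least 3.07-fold under TXN2 and PRDX2 by at least 10.7-fold under TXNRD2. Part of this order depended on the length used: with CPM per exon kb, chosen after seeing the data, PRDX5 had the highest mean and PRDX1 the 3rd, PRDX1 was above PRDX5 in 1 library, and PRDX3 was above TXN2 in 2. The exon length joins the exons of all transcripts of a gene. It was 8201 nt for TXNRD2 and 1650 nt for TXN2, against 1941 and 1336 nt in their reference transcripts. For PRDX6 and PRDX4 it was 2311 and 1855 nt, against 1690 and 956 nt. Levels per reference transcript were not computed, so order and folds between genes hold only for the lengths used. Between groups, 0 of the 10 members had FPKM ranges that did not overlap, against 2.96% of all genes with FPKM, and no exact two-sided permutation p was below 0.3, where 0.1 is the smallest that 3 against 3 libraries allow.

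**Figure D2:**
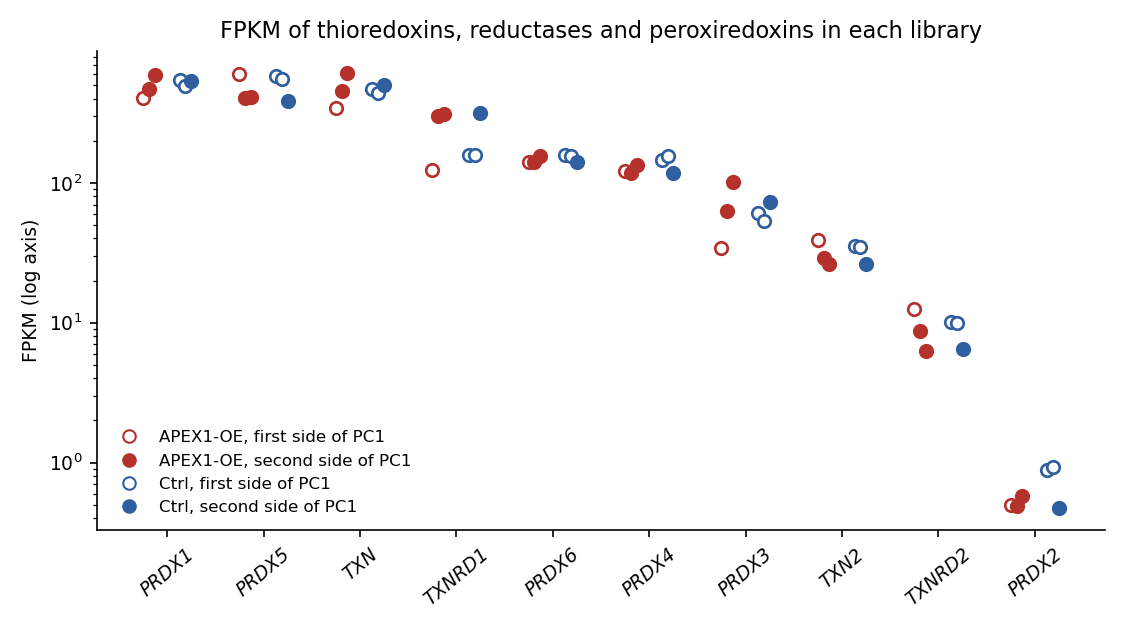
FPKM of each member (log axis) in the 3 APEX1-OE (red) and 3 Ctrl (blue) libraries, ordered by mean; open circles are the first side and filled circles the second side of the first principal component. TXNRD1 splits by side, not by group (123 to 159 against 300.1 to 315 FPKM), and PRDX2 lies below 1 FPKM in all 6 libraries.

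Each peroxiredoxin was also taken as its share of the summed FPKM of the 6 peroxiredoxins, a value that does not depend on how a library is scaled. PRDX1 made up 30.9%, 39.2% and 42.4% of the sum in APEX1-OE 1, 2 and 3 and 36.4%, 35.1% and 42.8% in Ctrl 1, 2 and 3. PRDX5 made up 46.2%, 33.7% and 29.3% in APEX1-OE and 39.0%, 39.0% and 30.8% in Ctrl. In FPKM PRDX5 was the larger of the pair in the 3 libraries of the first side and PRDX1 in the 3 of the second, but with counts per exon kb PRDX5 was also the larger in APEX1-OE 2 (42.2% against 35.2%) and Ctrl 3 (39.0% against 38.9%). PRDX6 kept to between 10.6% and 11.9%, and PRDX4 to between 9.31% and 11.1%. PRDX3 ranged from 2.63% to 7.34% (1.42% to 4.26% with counts per exon kb), and PRDX2 was at most 0.0659% (0.0377% with counts per exon kb). The sum itself ranged from 1189 to 1486 FPKM.

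The groups overlapped for all 9 shares and ratios, and the smallest exact two-sided permutation p was 0.4, for the shares of PRDX2, PRDX4 and PRDX6. The ratio of TXN to TXNRD1 was 2.80, 1.50 and 1.99 in APEX1-OE 1, 2 and 3 and 2.93, 2.76 and 1.59 in Ctrl 1, 2 and 3, a difference of means of -0.33 (exact permutation p = 0.6), which was -0.750 without Ctrl 3 and -0.0356 without APEX1-OE 2. It was highest in the 3 libraries of the first side. The FPKM ratio of TXNRD2 to TXNRD1, mitochondrial over cytosolic, was 0.102, 0.0291 and 0.0204 in APEX1-OE and 0.0635, 0.0631 and 0.0206 in Ctrl, also split by side. The ratio of TXN2 to TXN was 0.112, 0.0642 and 0.0427 in APEX1-OE and 0.0756, 0.0792 and 0.0525 in Ctrl (exact permutation p = 0.9), and it too was highest in the 3 libraries of the first side.

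**Figure D3:**
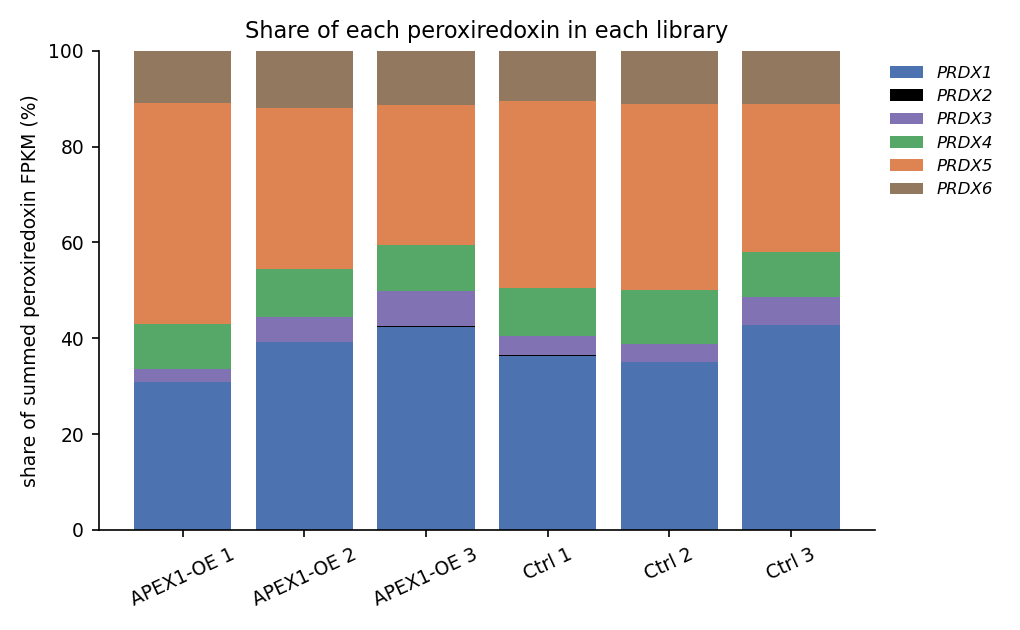
Share (%) of each peroxiredoxin in the summed peroxiredoxin FPKM of each library. PRDX1 and PRDX5 together fill most of each bar, and PRDX2 (at most 0.0659%) is barely visible.

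The members differed in how they varied between the sides of the first principal component. The second side minus the first, in mean log2 CPM, was 0.89 for TXNRD1, 0.51 for PRDX3 and 0.14 for TXN, -0.04 for PRDX1 and -0.24 for PRDX6, and between -0.38 and -0.79 for PRDX4, TXN2, PRDX2, PRDX5 and TXNRD2. The 4 members of highest GC content, TXN2, PRDX2, TXNRD2 and PRDX5, had the 4 lowest values. TXN, at 36.7% GC, lay below the 10th percentile of its GC bin (0.29), where the median gene was at 0.90. TXNRD1, at 46.3% GC, lay above the 90th percentile of its bin (0.75), while PRDX4 in the same bin lay below the 10th (-0.31). PRDX6 and TXNRD2 were also below the 10th percentile of theirs. The other 5 members lay between the 10th and 90th percentiles. By definition, 10% of the genes of a bin lie below the 10th percentile and 10% above the 90th. These are descriptions of sides drawn from the data, and no test was made of them.

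**Figure D4:**
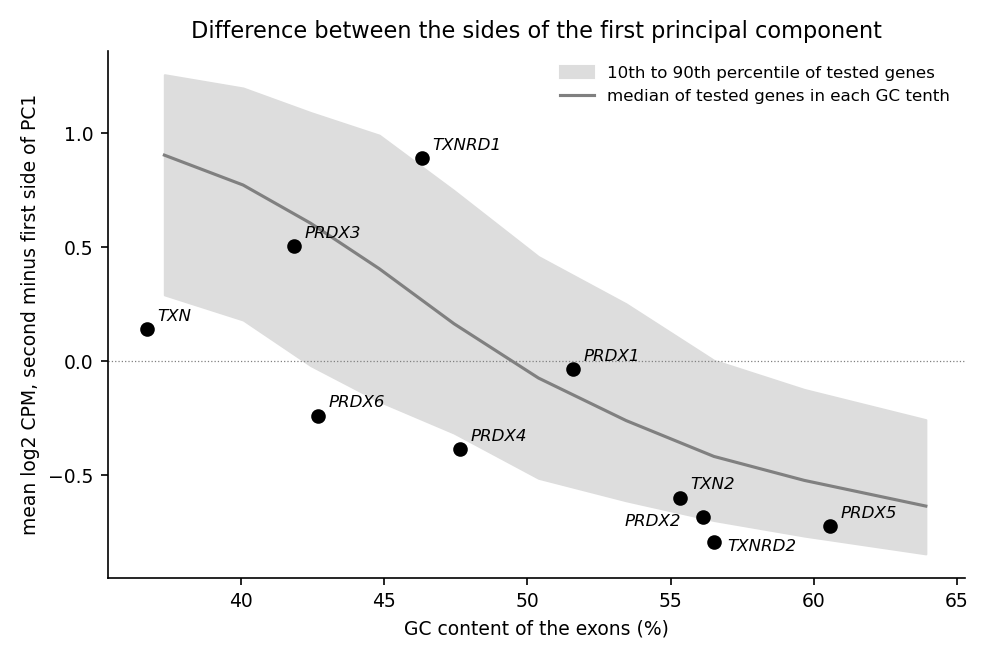
Difference in mean log2 CPM between the second and the first side of the first principal component against GC content of the exons (%), for the 10 members (points) and for all tested genes by GC bin (line, median; band, 10th to 90th percentile). TXN (0.14), PRDX6 (-0.24), PRDX4 (-0.38) and TXNRD2 (-0.79) lie under the range of their bin and TXNRD1 (0.89) above it.

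The 65 other genes of the pathway were read from the same fit, and 64 were tested; GPX7 had too few counts. EdgeR called 0 of them in either direction, as did DESeq2 and limma on log2(FPKM + 1), and each of these tools gave 1 at an unadjusted p under 0.05; in edgeR 0.695% of all genes had such a p. Their median log2 fold change was -0.0026 beside 0.03 over all genes, with 32 of the 64 above 0 beside 9759 of all 16971 genes tested. Of the 64 estimates, 29 changed sign with the side as a term and 24 with the side and an offset for GC content and length. The 1 gene at an unadjusted p under 0.05 in edgeR was TXNIP, the protein that binds and inhibits reduced thioredoxin. TXNIP had 9.33, 11.8 and 10.6 FPKM in APEX1-OE 1, 2 and 3 and 7.70, 6.20 and 7.19 FPKM in Ctrl 1, 2 and 3. Each APEX1-OE library exceeded each Ctrl library, on both sides of the first principal component, and TXNIP was the only gene of the 64 whose groups did not overlap in CPM, where 3.39% of all genes did not overlap. Its log2 fold change was 0.57 (SE 0.20, 95% interval 0.11 to 1.02, adjusted p = 1.000 in edgeR), so it did not pass. It passed in 1 alternative, which joined the side to an offset set by GC content and length (log2 fold change 0.68, adjusted p = 0.0316; 0.118% of all genes passed), and with the side alone its adjusted p was 0.131, in a range of 0.0316 to 1.000 over the alternatives. Without APEX1-OE 2, Ctrl 2 or Ctrl 3, TXNIP did not reach an unadjusted p under 0.05 in edgeR.

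In its list of 6 genes, TXNRD3 and those of thioredoxin inhibition and peroxiredoxin repair, TXNIP was the only gene at an unadjusted p under 0.05 in edgeR, and 0 were called. SRXN1, the sulfiredoxin that rescues overoxidized peroxiredoxins, had the highest level of its list at 107 FPKM and a log2 fold change of -0.06 (95% interval -0.45 to 0.34). Among the 18 other thioredoxin-fold proteins 0 were called by edgeR and 0 had an unadjusted p under 0.05. The most abundant was P4HB, the disulfide isomerase of the endoplasmic reticulum, at 379 FPKM, and the estimates ran from -0.20 for GLRX to 0.46 for TMX3. TMX3 had 1.70, 4.74 and 6.09 FPKM in APEX1-OE and 1.91, 2.01 and 4.97 FPKM in Ctrl, following the sides as TXNRD1 did. With the side as a term GLRX was at -0.27 and TMX3 at 0.02.

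Of the 8 thioredoxin clients, again with 0 called and 0 at an unadjusted p under 0.05 in edgeR, the methionine sulfoxide reductase MSRB1 was the most abundant (25.2 FPKM) and had the lowest estimate, -0.22. The kinase MAP3K5, which thioredoxin holds inactive, had the highest, 0.48 (95% interval -0.63 to 1.59), at a mean of 0.35 FPKM. In the glutathione arm and other peroxide enzymes, SOD1, SOD2 and CAT among them, 13 of 14 genes were tested, with the same counts of 0 and 0, and the peroxidase GPX1 led at 336 FPKM. Estimates ran from -0.17 for GPX2 to 0.40 for SLC7A11, the cystine importer. In the fit with the side as a term MSRB1 was at -0.03, MAP3K5 at 0.05, GPX2 at -0.03 and SLC7A11 at 0.03.

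The 9 genes of NADPH supply averaged between 2.22 and 542 FPKM, the highest being PGD of the pentose phosphate pathway. PGD had the lowest log2 fold change of the list, -0.18, and ME1 the highest, 0.18. Among the 5 genes of selenocysteine insertion, needed to make TXNRD1 and TXNRD2, SEPHS2 led at 20.7 FPKM and estimates ran from -0.09 for PSTK to 0.57 for SEPSECS (95% interval -0.60 to 1.73). Of the NRF2 regulators and reference targets NQO1 led at 438 FPKM with an estimate of -0.17, and BACH1 had 0.47. EdgeR with the groups alone called none of the genes of these 3 lists, 0 at the adjusted threshold and 0 at an unadjusted p under 0.05. With the side as a term PGD was at -0.07, ME1 at -0.22 and PSTK at -0.09. In the same fit SEPSECS was at 0.14, NQO1 at -0.08 and BACH1 at 0.04.

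Adding the side as a term, 10 of the 64 pathway genes had an unadjusted p under 0.05 in edgeR, against 11.6% of all genes, and 0 passed the adjusted threshold. The 5 with higher estimates in APEX1-OE were TXNIP, SESN2, GPX1, PGLS and HMOX1, and the 5 with lower ones were GLRX, GCLC, SOD2, CAT and IDH1. TXNIP, GPX1 and GLRX also met the fixed rule for naming genes, which goes by p, level and fold change; the other 7 fell outside it and were named after their values had been seen.

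**Figure D5:**
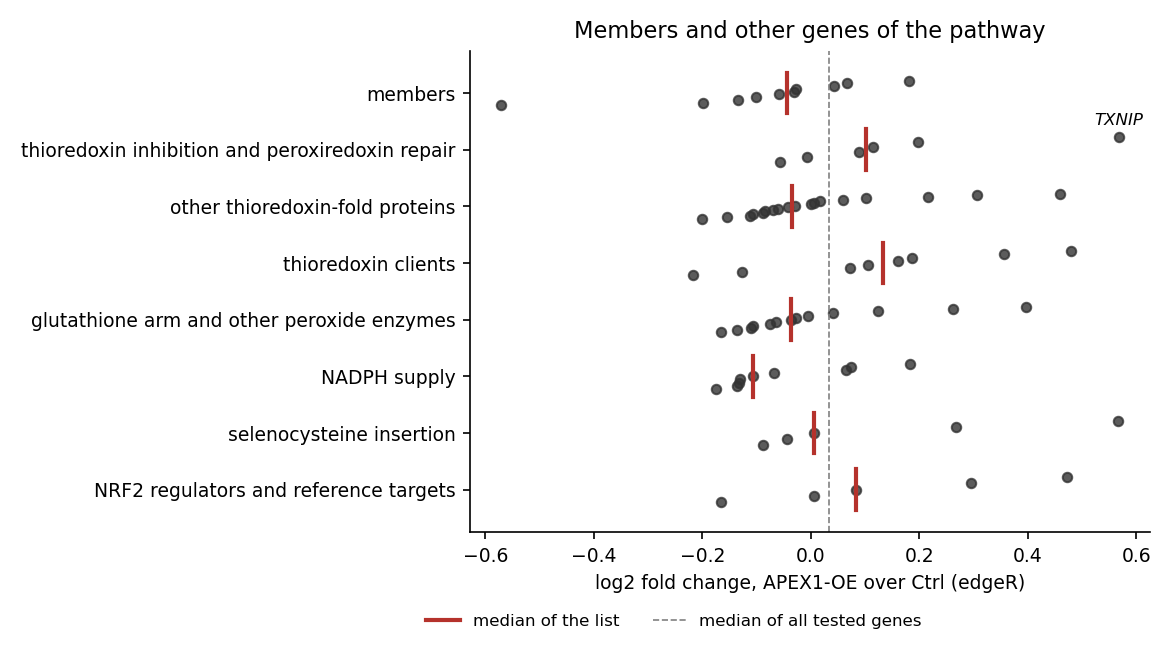
Log2 fold change of APEX1-OE over Ctrl (edgeR, groups alone) for the 10 members and the 64 tested pathway genes, 1 point per gene, by list; red bars are list medians and the dashed line the median of all tested genes (0.03). TXNIP (0.57) is marked as the one pathway gene with an unadjusted p under 0.05.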

How the data were processed

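According to the study's methods, the authors trimmed reads with FASTX-Toolkit (Version 0.0.13), aligned them to GRCh38 with TopHat2 and 4 mismatches allowed, and made the deposited gene counts and FPKM from uniquely mapped reads; the sources used here do not state the counting tool, the gene annotation or whether strand was used. A stranded, poly(A)-selected kit was used per the labels. Counts were tested in edgeR 4.0.16 (R 4.3.3; TMM, filterByExpr with a minimum count of 10, robust quasi-likelihood F-test, Benjamini-Hochberg over 16971 genes), checked on simulated counts. The alternatives used DESeq2 1.42.0, limma 3.58.1 (pseudocounts 1 and 0.1), other scalings and filters, left-out libraries, blocks, the side of the first principal component and a spline offset (5 degrees of freedom) on GC content and exon length. FPKM levels, shares and ratios were compared by exact permutation (scipy 1.17.1). GENCODE release 44 gave positions, overlaps, exon lengths and GC content (31231 of 32192 identifiers found); copies were found with blastn, and promoters were those of RefSeq (GRCh38.p14). Library totals were 28987040, 41009197 and 35234411 in APEX1-OE 1, 2 and 3 and 28131955, 34398771 and 35834880 in Ctrl 1, 2 and 3. Named were the members and, of each pathway list, genes called or with an unadjusted p under 0.05, the most abundant, and those with the largest and smallest log2 fold change, with genes overlapping a member's exons, not all of which are reported here. The members and lists were chosen with earlier results of these data known.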

Additional observations from a re-analysis of the deposited data

How the results depend on the processing

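The count of members called was 0 in edgeR under all alternatives run, at an unadjusted p under 0.05, with DESeq2, with limma and without each library in turn; at an unadjusted p 1 member was reached with the side as a term (11.6% of all genes) and without Ctrl 3 (3.47%), and 2 with the offset and the side (12.3%). The count of pathway genes called, 0 with the groups alone, was 1 with the GC and length offset together with the side, and 1 at an unadjusted p under 0.05; it was 0 without each library in turn. Among all genes edgeR called 1 with the groups alone, 10 without a filter, 4 with the side, 20 with the offset and the side, and 0 without APEX1-OE 2, APEX1-OE 3, Ctrl 1 or Ctrl 2. With a CPM of at least 1 in at least 3 libraries PRDX2 was not tested. Of 119 member estimates under alternatives keeping all libraries, 18 changed sign, and the cause was not tested. With the side as a term the log2 fold change became 0.16 for TXN2, -0.15 for TXNRD1, -0.22 for PRDX3, 0.13 for PRDX5 and 0.0281 for PRDX6. With the offset it was 0.0281 for TXN2 and -0.13 for PRDX3. With both it was 0.11 for TXN2, -0.0729 for TXNRD1, -0.14 for PRDX3, 0.0128 for PRDX4, 0.0220 for PRDX5 and 0.13 for PRDX6. On log2(FPKM + 1) and log2(FPKM + 0.1) PRDX3 was at -0.0306 and -0.0331. Leaving out each library moved the estimates from -0.20 to 0.0683 for TXN, -0.34 to 0.13 for TXN2, -0.36 to 0.32 for TXNRD2, -0.35 to 0.29 for PRDX3 and -0.45 to 0.0417 for PRDX5, and, without a change of sign, 0.0134 to 0.52 for TXNRD1, -0.24 to -0.0805 for PRDX1, -0.87 to -0.37 for PRDX2, -0.35 to -0.0855 for PRDX4 and -0.15 to -0.00256 for PRDX6. The estimate of TXNIP ran from 0.51 to 0.65 over the left-out libraries. With CPM per exon kb, chosen after seeing the data, 0 members had separate groups. Members whose groups did not overlap in FPKM numbered 0 to 2 over the left-out libraries: PRDX1 without APEX1-OE 3 (10.2% of all genes), and PRDX2 and PRDX4 without Ctrl 3 (12.8%). Shares and ratios without overlap also numbered 0 to 2, the share of PRDX6 without APEX1-OE 1 and those of PRDX2 and PRDX4 without Ctrl 3. The difference in share ran from -2.99 to 2.75 percentage points for PRDX1, -0.61 to 1.74 for PRDX3 and -4.75 to 3.68 for PRDX5, and that in ratio from -0.0156 to 0.0191 for TXN2 to TXN, -0.0244 to 0.0165 for TXNRD2 to TXNRD1 and -0.750 to -0.0356 for TXN to TXNRD1. With counts per exon kb in place of FPKM, 0 of the 9 shares and ratios had separate groups and no difference changed sign.

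Deviations from the group mean, for samples with the same replicate number, correlated at 0.607, -0.521 and 0.700. APEX1-OE 1 and Ctrl 1 lay on the same side of the first principal component, as did APEX1-OE 3 and Ctrl 3. APEX1-OE 2 and Ctrl 2 lay on different sides. The correlations follow these sides, so they cannot decide whether samples of the same number were prepared together. With the replicate block 0 members and 0 pathway genes were called, with 2 calls among all genes in place of 1, and PRDX3 took the opposite sign (-0.0452); with the block and the offset TXN2 was at 0.0253 and PRDX3 at -0.15. With 3 libraries per group, differences inside the intervals given could not be seen, and PRDX2 rested on 18 to 39 counts per library.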
